A study of Mus musculus with 4 samples.

Results

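Rnase10, Rnase12, Rnase4 and Ang are 4 neighbouring genes of the ribonuclease A locus on mouse chromosome 14, and they were followed here through single Kit-positive bone marrow cells. They were the rows of the deposited count matrices whose symbol matched, 4 of 32285 gene features, and they were chosen by their measured rise in the library labelled as deleted for both Mll3 and Mll4. That rise is therefore given as a description, and no test was made of it. The cells carried the CD45.2 marker, were sorted as Kit-positive and were taken 10 weeks after transplantation. Each of 4 groups had 1 library, and their labels are control (wild type in its library name), Mll3 deleted, Mll4 deleted, and Mll3/4 deleted. The deleting agent, the host strain and the number of animals pooled were not given in the sources used here. With 1 library a group, every interval below is a 95% interval for counting error alone, and what is compared is one library with another.

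Ribonuclease A proteins are small secreted enzymes that cleave RNA, and many members of the family act in host defence or in reproduction. Ang encodes angiogenin, which induces new blood vessels and cleaves transfer RNA under stress, and in marrow it is known as a niche factor acting on blood stem and progenitor cells. Rnase4 encodes a ribonuclease that prefers uridine and is transcribed with Ang from shared promoters. Rnase10 and Rnase12 belong to a group of atypical family members, and both are known from the male reproductive tract, where Rnase10 in the epididymis is needed for normal sperm maturation. Mll3 and Mll4, encoded by Kmt2c and Kmt2d, are the methyltransferases that place monomethylation on lysine 4 of histone H3 at enhancers.

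Promoter sequences are shown first because the members lie side by side and moved together. Rnase10 (ENSMUSG00000021872) spans chr14:51007751-51010758 on the plus strand, and Rnase12 (ENSMUSG00000068407) spans chr14:51056698-51057661 on the minus strand. Rnase4 (ENSMUSG00000021876) spans chr14:51091077-51106151 on the plus strand and encloses Ang (ENSMUSG00000072115) at chr14:51091150-51102009, all in GENCODE coordinates of GRCm38. Rnase10 and Rnase12 are 45.9 kb apart, Rnase12 and Rnase4 33.4 kb, and the 4 genes fit in 98.4 kb. RefSeq gives 5 distinct promoter windows for the members in build GRCm38.p6, each reaching from 250 bases before a start site to 50 bases after it, and 1 window serves both Rnase4 and Ang. The window of Rnase10 with the upstream start is chr14:51007501-51007800, that of Rnase12 is chr14:51057193-51057492 on the minus strand, and that of Rnase4 and Ang is chr14:51090827-51091126. The Rnase12 window lies inside the gene's GENCODE span and does not reach the GENCODE start at 51057661. It overlaps a GENCODE last exon, chr14:51056698-51057242, so it need not be the promoter of the GENCODE transcripts. Capitals mark matches to the motifs named after them.
Rnase10: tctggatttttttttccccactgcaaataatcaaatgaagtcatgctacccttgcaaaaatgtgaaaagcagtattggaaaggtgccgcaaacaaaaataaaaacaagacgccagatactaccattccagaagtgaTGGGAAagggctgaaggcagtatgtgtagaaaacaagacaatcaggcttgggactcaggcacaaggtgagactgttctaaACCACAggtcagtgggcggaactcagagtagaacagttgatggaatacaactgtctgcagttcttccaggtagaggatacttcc
Rnase12: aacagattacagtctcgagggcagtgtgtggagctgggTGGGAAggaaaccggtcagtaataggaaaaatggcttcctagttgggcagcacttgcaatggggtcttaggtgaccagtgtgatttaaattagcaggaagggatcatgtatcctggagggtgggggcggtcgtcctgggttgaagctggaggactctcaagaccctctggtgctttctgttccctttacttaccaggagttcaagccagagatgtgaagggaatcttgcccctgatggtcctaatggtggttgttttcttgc
Rnase4 and Ang: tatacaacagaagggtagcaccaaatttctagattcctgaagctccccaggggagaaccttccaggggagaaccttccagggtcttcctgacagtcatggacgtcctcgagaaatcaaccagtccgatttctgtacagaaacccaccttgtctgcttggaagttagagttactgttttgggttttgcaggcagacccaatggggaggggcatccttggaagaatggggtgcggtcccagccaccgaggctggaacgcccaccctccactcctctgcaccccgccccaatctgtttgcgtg

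In these windows 7 short motifs of factors at work in B-cell progenitors, or of the basal promoter, were looked for on both strands. The Ikaros core TGGGAA occurred in 4 of the 5 member windows and in 25.6% of 32817 distinct promoter windows of the same length. It lay 114 bases before the start in the printed Rnase10 window and 212 bases before the RefSeq start in that of Rnase12. The Runx core TGTGGT occurred in both Rnase10 windows, which share 122 bases and the match itself, and in 16.8% of all windows. In the printed Rnase10 window the Runx match lay on the other strand, 34 bases before the start. The other 5 motifs had no match in any member window: the palindrome of TCCC and GGGA around 2 free bases for Ebf1 (0.905% of all windows), the E-box CAGGTG (20.2%), GAGGAAGT for Spi1 (3.20%), GTAAACA for Foxo factors (3.65%) and the TATA box TATAAA (13.6%). The shared window of Rnase4 and Ang held none of the 7 and is therefore printed without capitals. Matches describe letters in these windows and do not show binding.

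The labels were checked on the deleted genes before the members were read. Over all kept cells, Kmt2c had a CPM (its UMI counts per 1000000 gene UMIs of the same cells) of 47.9 in control and of 27.2, 59.2 and 34.8 in the libraries labelled Mll3, Mll4 and Mll3/4. Kmt2d stood at 25.8, 21.6, 25.0 and 24.8 CPM in the same order, so its level did not follow its label, and a count from the 3′ end need not fall when an upstream exon is removed. Both genes were read over all cell types together, and the mix of types differed between the libraries, so cell type and label are not separated. The libraries are therefore called by their labels throughout, and values are given in the order control, Mll3-, Mll4-, Mll3/4-labelled. The 4 libraries kept 5350 to 7146 cells after filtering, with median depths from 5142 UMIs in the Mll4-labelled to 16964 in the Mll3-labelled library. Cell classes were named from fixed markers and are called "-like", since no cell annotation was used. The B-cell progenitor-like class held 469 of 7146 kept control cells, 368 of 5860 Mll3-labelled, 143 of 5350 Mll4-labelled and 6830 of 6917 Mll3/4-labelled cells. The libraries shared few barcodes: 104 occurred in more than 1 library, 9 to 24 in any pair.

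Over all kept cells, each member was almost absent from 3 libraries and abundant in the Mll3/4-labelled one. Rnase10 stood at 0.293 CPM in control (45 counts), at 0.287 CPM Mll3-labelled (39 counts), at 0.122 CPM Mll4-labelled (4 counts) and at 186 CPM Mll3/4-labelled (14436 counts). Rnase12 stood at 2.01, 2.18, 1.53 and 681 CPM in that order. Rnase4 stood at 0.905, 0.735, 0.641 and 173 CPM, and Ang at 0.710, 0.699, 0.305 and 57.2 CPM. The Mll3/4-labelled library was the high one for all 4 genes, and its intervals were far from those of the other 3. The log2 ratio to control was 9.31 for Rnase10 (8.89 to 9.77), 8.40 for Rnase12 (8.24 to 8.57), 7.58 for Rnase4 (7.34 to 7.83) and 6.33 for Ang (6.06 to 6.62). With called meaning a log2 ratio of at least 1 among genes with at least 20 counts in either sum, 19.8% of 15158 genes were called higher in this comparison, and so were all 4 members, which were selected on it. The ratios over all cells mix cell types: 17 of 21 B-lineage genes were also called higher, with a median log2 ratio of 5.19 beside -0.02 over all genes tested.

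Within the B-cell progenitor-like class the members were also far higher in the Mll3/4-labelled library. Rnase10 had 7 counts in 469 control cells (2.21 CPM, 0.886 to 4.54), 0 counts in 368 Mll3-labelled cells (at most 1.04 CPM at the floor of 3 counts), 1 count in 143 Mll4-labelled cells (2.81 CPM) and 14416 counts in 6830 Mll3/4-labelled cells (190 CPM, 187 to 193). The Mll3/4-labelled class was thus 86.2-fold above control (log2 6.43, 5.39 to 7.74) and at least 182-fold above the Mll3-labelled class. Of the 7 control counts, 4 came from 1 control cell of 2779 UMIs that grouped with the Mll3/4-labelled cells and also held 5 Rnase12 UMIs. Its barcode was in no other library, and where it came from was not tested. Without that cell Rnase10 had 3 control counts (0.946 CPM) and the ratio was 201-fold (log2 7.65, 6.103 to 9.928). A stricter cell filter also left 3 control counts and gave a log2 ratio of 7.60, whereas thinning to 2000 UMIs gave 5.59 and averaging each cell's share of UMIs 5.68.

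Rnase12, the member with the most counts in every library, was already present in the control class. It stood at 42.2 CPM in control (134 counts, 35.37 to 49.99), 35.5 in the Mll3-labelled class (102 counts, 28.9 to 43.1), 61.8 in the Mll4-labelled class (22 counts, 38.7 to 93.5) and 696 in the Mll3/4-labelled class (52782 counts, 690 to 702). The intervals of the first 3 overlapped and the fourth was 16.5-fold above control (log2 4.04, 3.80 to 4.30). Of the 22 Mll4-labelled counts, 4 lay in 5 cells that grouped with the Mll3/4-labelled cells, and the others gave 52.0 CPM without them.

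Rnase4 and Ang, the overlapping pair, followed at lower counts. Rnase4 stood at 11.7 CPM in control (37 counts), 9.73 in the Mll3-labelled class (28 counts), 5.61 in the Mll4-labelled class (2 counts) and 177 in the Mll3/4-labelled class (13405 counts), a log2 ratio to control of 3.92 (3.46 to 4.43). When clusters were named by folds over all other cells, a choice added after the data were seen, the control class had 10 Rnase4 counts and the log2 ratio was 5.07. These were the 9 counts of cluster 21, a control cluster of dividing cells described below, and the 1 count of the control cell named above. Cluster 15, with 315 control cells and 27 Rnase4 counts, was then not in the class. Ang stood at 5.36 CPM (17 counts), 6.61 (19 counts), 0 counts with a floor of 8.42 CPM, and 58.4 CPM (4430 counts), a log2 ratio to control of 3.45 (2.77 to 4.23). For both genes the Mll3/4-labelled class alone was high and a difference of the Mll3-labelled or Mll4-labelled library from control was not detectable at this depth. Rnase4 and Ang are read from the same strand and share 219 exonic bases, 13.4% of those of Rnase4 and 18.2% of those of Ang, but their last exons, where a 3′ library reads, share none. Ang2, Ang4, Ang5 and Ang6, close copies of Ang, had 0 counts in the class in control and Mll3/4-labelled cells, and how reads that fit several copies were assigned is not given in the sources used here.

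In the class, 11.8% of 13455 genes were called higher in the Mll3/4-labelled library than in control, and the 4 members were among them. Rnase10 and Ang passed the minimum of 20 counts only through the Mll3/4-labelled sum, so that their call follows from the filter and their choice. From the highest ratio, with counts of 0 set to the floor, Rnase10 ranked 8, Rnase12 116, Rnase4 125 and Ang 188. Against control, the Mll3-labelled class had 0.598% of 8866 genes called higher and the Mll4-labelled class 8.98% of 8726. Of the 2 members with 20 counts there, Rnase12 and Rnase4, neither was called higher in those 2 comparisons. The Mll3-labelled to control log2 ratio was -0.25 for Rnase12 (-0.64 to 0.13) and -0.26 for Rnase4 (-1.02 to 0.49). The Mll4-labelled to control log2 ratio was 0.55 for Rnase12 (-0.17 to 1.21) and -1.05 for Rnase4 (-4.15 to 0.90), and both intervals include 0, although Rnase4, with 2 counts, is past the size of a call on the lower side, as were 8.11% of genes there. These comparisons share the control library.

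The share of cells with a UMI moved with the level. Unthinned, Rnase10 was seen in 3 of 469 control cells (0.640%), 0 of 368 Mll3-labelled cells, which allows a share of up to 0.815%, 1 of 143 Mll4-labelled cells (0.699%) and 2364 of 6830 Mll3/4-labelled cells (34.6%), at median depths of 4410, 6522, 2276 and 9936 UMIs. After each cell was thinned to 2000 UMIs, the shares were 0.228% of 439 cells, 0% of 350, 1.35% of 74 and 19.9% of 6747 (18.9 to 20.8%), with 30, 18, 69 and 83 shallower cells left out. For Rnase12 the thinned shares were 7.75%, 5.43%, 6.76% and 65.4%. For Rnase4 they were 2.51%, 2.29%, 0% and 29.1%, and for Ang 1.14%, 1.14%, 0% and 12.01%. At equal depth the Mll3/4-labelled cells therefore still held each member far more often. In control erythroid progenitor-like cells, taken as a class that should lack these genes, 0.087% of 1148 cells had a Rnase10 UMI and 0.523% a Rnase12 UMI, unthinned at a median of 55778 UMIs. The members are rare in all of the control library, so these shares do not bound free RNA in the Mll3/4-labelled one. That library had 1 erythroid progenitor-like cell.

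RNA markers of the class were checked beside these values. All 10 B-cell progenitor markers had counts in each library, and their summed level was 15642 CPM in control, 13449 in the Mll3-labelled, 10984 in the Mll4-labelled and 12788 in the Mll3/4-labelled class. Markers of neutrophils summed to 2429, 1789, 6358 and 78.1 CPM in the same order, with Mmp8 at 0 in the first 3, and those of granulocyte progenitors to 807, 968, 907 and 47.9 CPM with none at 0. Dendritic markers moved with the members and summed to 432, 359, 438 and 933 CPM, with Siglech, Cd209a, Xcr1 and Itgax at 0 in all 4. The Mll3/4-labelled class thus had less granulocyte RNA and more of the dendritic list, and the part of either in the result was not tested. The mature B markers summed to 96.4, 71.6, 182.5 and 37.9 CPM, with Fcer2a at 0 in the first 3, Ms4a1 at 0 in the Mll3-labelled class and Fcmr and Ccr7 at 0 in the Mll4-labelled class. Among B-lineage genes themselves, 2 of 20 were called higher in the Mll3/4-labelled class than in control and 2 lower, near the 11.8% and 9.97% of all genes, with a median log2 ratio of -0.24 beside -0.04 over all genes tested. Foxo1, a transcription factor of early B-cell development, had a log2 ratio of 1.99 and Il7r, the receptor for interleukin 7, 1.42. Vpreb2, a surrogate light chain gene, had -8.83 and Tcf3, an E-protein gene, -1.17.

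**Figure D1:**
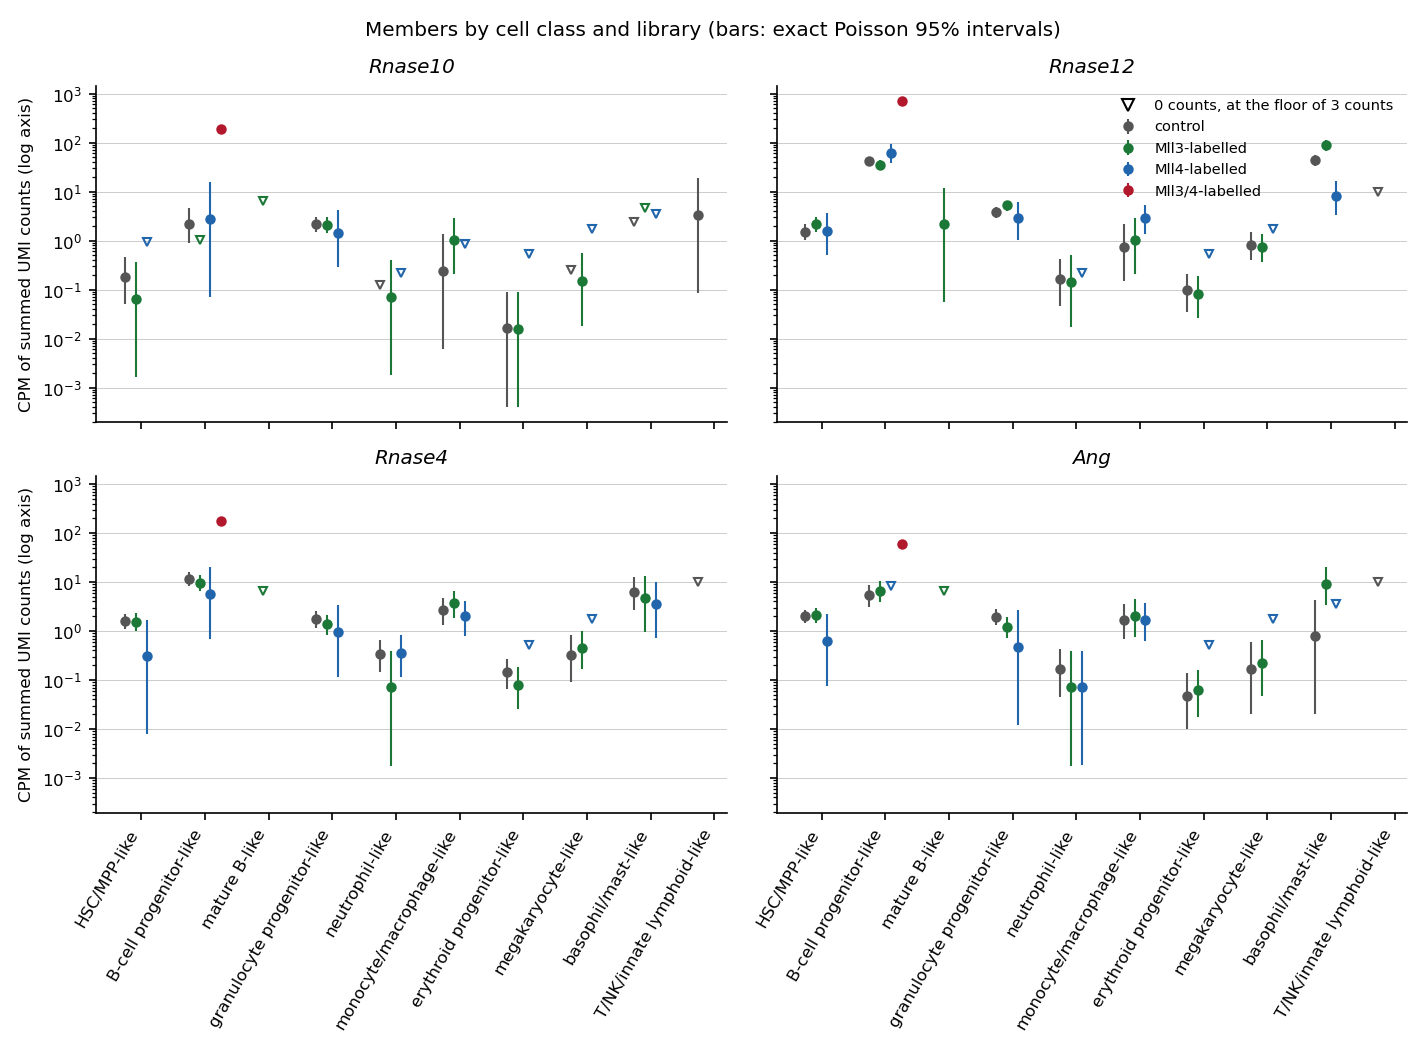
CPM of summed UMI counts (y axis, log scale) of the 4 members in each cell class with at least 50 cells (x axis), by library; bars are exact Poisson 95% intervals and open triangles mark 0 counts at the floor of 3 counts. The Mll3/4-labelled library has only B-cell progenitor-like cells in that number, and its values, 190, 696, 177 and 58.4 CPM, are the highest of each panel, while Rnase12 also stands out in basophil/mast-like cells of control and the Mll3-labelled library.

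Outside the B-cell class the members had unlike low patterns in control. Rnase12 was highest in basophil/mast-like cells (43.3 CPM, 32.6 to 56.4, 55 counts in 120 cells), level with the B-cell progenitor-like class, and the next classes were granulocyte progenitor-like (3.78 CPM, 2.84 to 4.93) and HSC/MPP-like cells, the stem and multipotent progenitor class (1.52 CPM, 1.05 to 2.13). Megakaryocyte-like (0.824 CPM) and monocyte/macrophage-like cells (0.732 CPM) did not differ from each other beyond counting error, nor did unnamed clusters (0.971 CPM), and neutrophil-like (0.167 CPM) and erythroid progenitor-like cells (0.096 CPM) came last, while 50 T/NK/innate lymphoid-like cells had 0 counts. The basophil/mast-like cells of the Mll3-labelled library had 87.8 CPM of Rnase12 (66.5 to 114, 57 counts in 66 cells) and those of the Mll4-labelled library 8.11 CPM (3.26 to 16.7, 7 counts in 282 cells). The 3 CPM intervals for basophil/mast-like cells did not overlap. Unthinned, Rnase12 was seen in 21.7% of the control cells (14.7 to 30.1%) and 27.3% of the Mll3-labelled ones (17.0 to 39.6%). These shares overlapped in their intervals, and the Mll4-labelled share was 2.13% (0.785 to 4.57%) in shallower cells. Control cells with Rnase12 held 2.1 of its UMIs on average and Mll3-labelled ones 3.2. The CPM intervals assume independent UMIs, so a difference between control and Mll3-labelled cells is not established. Cluster 23, led by Ms4a2 and Mcpt8, held 92 of the 120 control cells and 49 of the 66 Mll3-labelled ones, whereas cluster 25, led by Cma1, held 156 of the 282 Mll4-labelled ones, so that the mix of the class differed too. Cd79a, a B-cell antigen receptor gene, had 2 counts in the control cells, 3 in the Mll3-labelled and 10 in the Mll4-labelled ones, beside 55, 57 and 7 of Rnase12. Rnase12 had 1 count in 147 mature B-like cells of the Mll3-labelled library (2.17 CPM), below the 35.5 CPM of the progenitors of the same library.

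Rnase10 had its other site in granulocyte progenitor-like cells. It stood there at 2.17 CPM in control (31 counts in 655 cells, 1.47 to 3.08), 2.12 in the Mll3-labelled library (31 counts in 661 cells) and 1.42 in the Mll4-labelled library (3 counts in 258 cells). Those cells held 9, 16 and 1 Cd79a counts. The control interval overlapped that of the B-cell progenitor-like class, and 29 of the 39 control cells with Rnase10 were granulocyte progenitor-like. In control, HSC/MPP-like cells had 4 counts in 1438 cells, the erythroid progenitor-like, monocyte/macrophage-like and T/NK/innate lymphoid-like cells had 1 count each, and neutrophil-like, megakaryocyte-like and basophil/mast-like cells had 0.

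Rnase4 and Ang were spread more widely at low level. Control Rnase4 was highest in B-cell progenitor-like cells (11.7 CPM), then basophil/mast-like (6.30 CPM, 2.72 to 12.4) and monocyte/macrophage-like cells (2.68 CPM, 1.34 to 4.80), with granulocyte progenitor-like (1.75 CPM) and HSC/MPP-like cells (1.56 CPM) next. Neighbours in this order overlapped in their intervals. Control Ang was highest in B-cell progenitor-like cells (5.36 CPM, 3.12 to 8.57), then HSC/MPP-like (2.02 CPM, 1.47 to 2.72), granulocyte progenitor-like (1.96 CPM) and monocyte/macrophage-like cells (1.71 CPM), and the last 3 did not differ beyond counting error. Erythroid progenitor-like cells were low for both, at 0.144 CPM for Rnase4 and 0.048 CPM for Ang.

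The Mll3/4-labelled library had few cells outside the B-cell class, and some held the members. Its 25 neutrophil-like cells had 79.1 CPM of Rnase12 and 22.6 CPM of Rnase10, and its 19 T/NK/innate lymphoid-like cells had 218 and 47.1 CPM. These counts lay in few cells: 6 of the neutrophil-like cells had Rnase12 and 4 had Rnase10, and in the T/NK/innate lymphoid-like cells 2 had Rnase12 and 1 had Rnase10. Cd79a came with them: Rnase12 had 31.3 counts per 100 Cd79a counts in the neutrophil-like cells (21.6 to 44.6) and 27.4 in the T/NK/innate lymphoid-like cells (18.5 to 39.7), beside 23.2 in the B-cell progenitor-like class. For Rnase10 these values were 8.96 (4.51 to 16.2), 5.93 (2.507 to 12.01) and 6.34. The ratio of the members to Cd79a there was thus close to that in the B-cell class. The 14 HSC/MPP-like cells, at a median of 22080 UMIs, had 4 Rnase12 counts in 3 cells (14.2 CPM, 3.86 to 36.3), and this interval lay above that of control (1.05 to 2.13). They had 0 Rnase10 counts, 4 Ebf1 counts in 2 cells and 1 Cd79a count. The 5 monocyte/macrophage-like cells had 6 Rnase12 counts in 2 cells (43.6 CPM, 16.01 to 94.98), above the control interval (0.151 to 2.14), with 26 Cd79a counts in 1 cell and 0 Rnase10 counts. The part of B-cell RNA in these counts was not tested.

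Part of the locus around the members stood higher as well. Within 250 kb on either side of the members the annotation has 39 genes, of which 28 have a row in the matrices, 24 of them neighbours of the members. In the B-cell progenitor-like class 5 of the 13 neighbours with at least 20 counts were called higher in the Mll3/4-labelled library and 0 lower, beside 11.8% and 9.97% of all genes tested. Of the 5, Rnase9 and Rnase11 passed that minimum only through the Mll3/4-labelled sum, so that their call follows in part from the filter. Klhl33 and Ccnb1ip1 passed in the same way and were not called. Apex1, Pnp and Pnp2, the other called neighbours, had at least 20 counts in both sums. The median log2 ratio of the neighbours was 0.13, beside -0.04 over all genes, both with Rnase11 and Klhl33, which had 0 control counts, at their floor and over the 11 others. Rnase9 and Rnase11, which lie between Rnase10 and Rnase12 and are epididymal family members like Rnase10, were among the 5 called. Rnase9 had 1 count in control, 0 in the Mll3-labelled, 1 in the Mll4-labelled and 601 in the Mll3/4-labelled class (7.92 CPM), a log2 ratio to control of 4.65 (2.17 to 9.96). Rnase11 had 0 counts in the first 3 and 554 in the last (7.30 CPM), at least 7.73-fold above control.

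On the side beyond Rnase10, Pnp2 and Pnp, which encode purine nucleoside phosphorylases, and Apex1, a DNA repair endonuclease gene, were the other 3. Pnp2, 51.8 kb before the start of Rnase10, stood at 16.7 CPM in control, 10.1 in the Mll3-labelled, 22.5 in the Mll4-labelled and 191 in the Mll3/4-labelled class, a log2 ratio to control of 3.51 (3.12 to 3.93). Pnp stood at 348, 275, 382 and 940 CPM (log2 1.43, 1.35 to 1.52). Pnp and Pnp2 are close copies with overlapping spans, so the split of reads between them is uncertain. Apex1 stood at 81.3, 85.9, 89.8 and 177 CPM (log2 1.12, 0.94 to 1.30). Pip4p1, between Apex1 and Pnp, had a log2 ratio of -0.15 (-0.43 to 0.13), and Osgep, beside Apex1, 0.43 (0.27 to 0.58). Farther out, Tep1 had -0.81, Parp2 -0.39, Ttc5 -0.39 and Ccnb1ip1 0.13, and none of them was called.

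Beyond Rnase4 and Ang, little was measured in the class. Rnase6, 116 kb after the start of Rnase10, was lower, with 1.26 CPM in control (4 counts) and 0.184 CPM in the Mll3/4-labelled class (14 counts). Its log2 ratio was -2.77 (-4.44 to -0.71). It had too few counts for a call. Rnase1, Rnase2a, Rnase2b, Ang2 and Ear14 had 0 counts in both. Of the 16 other family genes anywhere in the genome, Rnase9 and Rnase11 were the 2 with at least 20 counts in the class. Rnh1, the inhibitor that binds secreted ribonucleases including angiogenin, had 57.0 CPM in the control class and 66.4 in the Mll3/4-labelled class (log2 0.22, 0.01 to 0.44), and Plxnb2, an angiogenin receptor gene, 9.45 and 10.7 CPM (log2 0.17, -0.35 to 0.75).

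**Figure D2:**
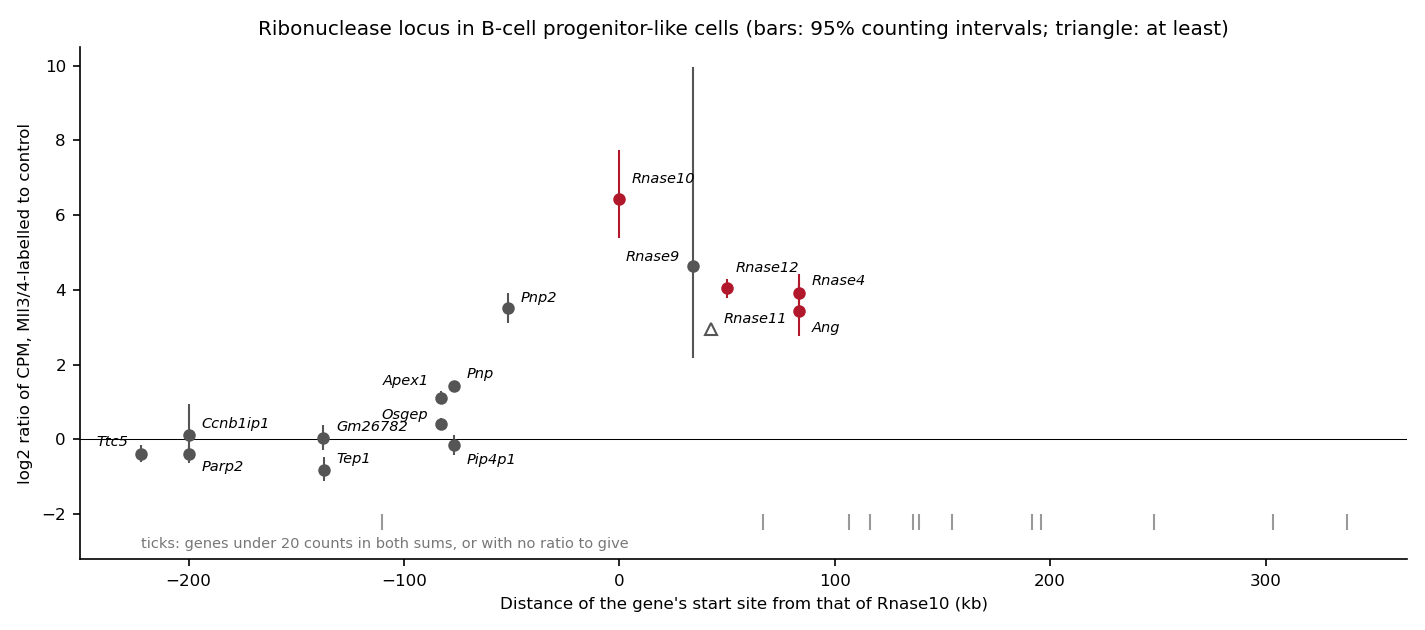
Log2 ratio of CPM between the Mll3/4-labelled and control B-cell progenitor-like cells (y axis) against the distance of each gene's start site from that of Rnase10 in kb (x axis). Members are in red, neighbours in grey, and bars are 95% counting intervals. The triangle for Rnase11 is the ratio with its 0 control counts set to the floor of 3 counts. The high ratios run from Pnp2 at 3.51 to Rnase4 at 3.92 and Ang at 3.45, with Rnase10 highest at 6.43, and Ttc5, Parp2, Tep1, Gm26782 and Ccnb1ip1 farther out lie between -0.81 and 0.13.

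Different clusters held the class in the libraries, and the members were compared by cluster for that reason. Control cells lay in cluster 15 (315 cells, Mki67 125 CPM) and cluster 21 (153 cells, Mki67 1410 CPM), where Mki67 is a gene of dividing cells. The Mll3/4-labelled cells lay in cluster 0 (3050 cells, Mki67 73.2 CPM), cluster 1 (2054 cells, 138 CPM), cluster 18 (424 cells, 1304 CPM) and cluster 6 (1296 cells, 1686 CPM). Median depths were 3415 and 11009 UMIs in clusters 15 and 21 and 7975, 11522, 10891 and 14678 in clusters 0, 1, 18 and 6. Rnase10 stood at 1.57 and 0.526 CPM in clusters 15 and 21 and at 287, 199, 72.0 and 85.2 CPM in clusters 0, 1, 18 and 6. Rnase12 stood at 43.2 and 39.0 CPM in the control clusters and at 728, 663, 648 and 706 CPM in the others. Every Mll3/4-labelled cluster was above both control clusters, dividing or not. The Mll3-labelled cells of clusters 15 and 21 had 34.2 and 36.3 CPM of Rnase12 and the Mll4-labelled ones 65.7 and 44.6 CPM, with intervals that overlapped those of control.

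Among the Mll3/4-labelled clusters the members parted. Rnase10 was lower in the clusters with high Mki67, by a factor of 3 to 4 against cluster 0, while Rnase12 differed little. Rnase4 stood at 242, 147, 217 and 119 CPM in clusters 0, 1, 18 and 6, and Ang at 85.2, 50.7, 65.9 and 31.4 CPM. Rnase4 and Ang were thus lowest in cluster 6 and higher in cluster 18, although both clusters had high Mki67. In the control clusters Rnase4 stood at 21.2 CPM in cluster 15 (13.99 to 30.88) and 4.74 CPM in cluster 21 (2.17 to 8.99), and Ang at 7.08 and 4.21 CPM with overlapping intervals.

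**Figure D3:**
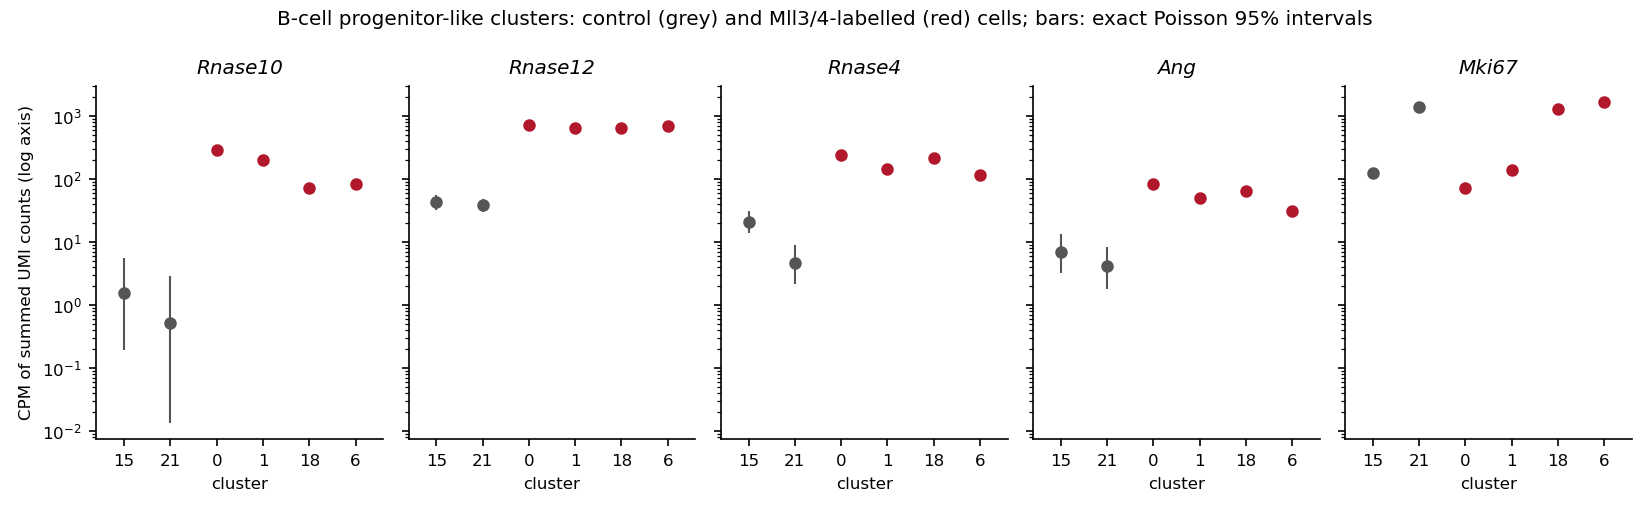
CPM of summed UMI counts (y axis, log scale shared by all panels) of the 4 members and Mki67 in the clusters of B-cell progenitor-like cells (x axis), control in grey and Mll3/4-labelled in red, with exact Poisson 95% intervals. Each member is higher in all 4 Mll3/4-labelled clusters than in the control clusters, and Rnase10 falls from 287 CPM in cluster 0 to 72.0 CPM in cluster 18 while Rnase12 stays between 648 and 728 CPM.

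Rnase10 was uneven from cell to cell in the Mll3/4-labelled class. It was seen in 34.6% of cells at 190 CPM, whereas Rnase4 was seen in 69.7% of cells at a similar 177 CPM. Among the 1394 genes with at least 100 CPM in the class, the share for Rnase10 was the 27th lowest, beside a median share of 75.4%. The tenth of cells with the most Rnase10, 683 cells, held 66.7% of its UMIs, against 29.6% for Rnase12, 35.0% for Rnase4 and 47.5% for Ang. Cells with Rnase10 had a median of 4 UMIs and at most 47. The variance over the mean of its counts was 10.8, beside 6.29 for Rnase12, 2.45 for Rnase4 and 1.70 for Ang. These values rest on cells of 1 library and include the spread of cell depth.

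**Figure D4:**
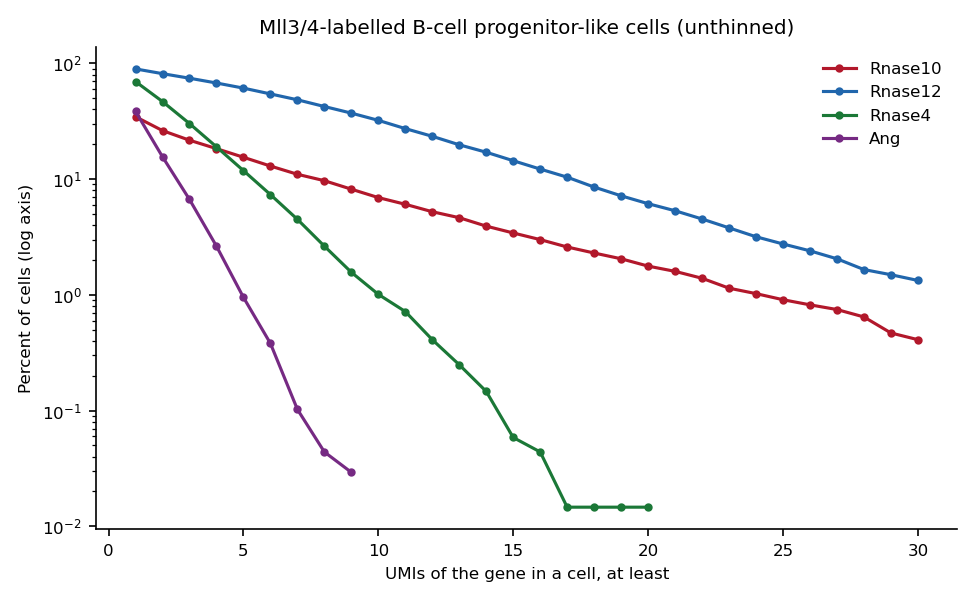
Percent of the 6830 Mll3/4-labelled B-cell progenitor-like cells (y axis, log scale) with at least the given number of UMIs of a member (x axis), unthinned. The Rnase10 curve starts at 34.6%, below Rnase4 at 69.7%, and crosses it, since a few cells hold many Rnase10 UMIs, up to 47.

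Whether the neighbours rose in the same cells was read at equal depth. In Mll3/4-labelled B-cell progenitor-like cells thinned to 2000 UMIs, 1339 of 6747 had a Rnase10 UMI. Rnase12 was seen in 80.4% of these (78.2 to 82.5%) and in 61.7% of the cells without Rnase10 (60.3 to 63.0%). Rnase4 was seen in 38.9% (36.3 to 41.6%) and 26.7% (25.5 to 27.9%), and Ang in 17.2% (15.2 to 19.3%) and 10.7% (9.91 to 11.6%). Each neighbour was thus seen more often in cells with Rnase10, but was common in the cells without it too. The remaining pairs ran the same way: with and without Rnase12, Rnase4 was seen in 33.9% and 20.1% of cells and Ang in 14.5% and 7.36%, and with and without Rnase4, Ang was seen in 17.8% and 9.64%. Rnase9 was seen in 3.51% of cells with Rnase10 and 1.31% of those without, and Rnase11 in 3.21% and 1.24%.

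Within single clusters the intervals lay apart for Rnase12 in all 4, for Rnase4 in clusters 0 and 1 and for Ang in cluster 0. Rnase12 was seen in 82.4% of Rnase10-positive and 62.5% of Rnase10-negative cells of cluster 0, 77.3% and 60.8% in cluster 1, 76.2% and 62.4% in cluster 6, and 91.4% and 58.1% in cluster 18. Rnase4 was seen in 45.6% and 32.4% of cells in cluster 0 and in 24.5% (17.8 to 32.3%) and 18.8% (16.6 to 21.2%) in cluster 6, where the intervals overlapped, as in cluster 18. Ang was seen in 22.7% and 14.7% of cells in cluster 0, in 11.4% and 8.48% in cluster 1 with overlapping intervals, and in 4.76% and 6.103% in cluster 6. In the control class the pairs with Rnase10 could not be read, since 3 cells had Rnase10, and all 3 had Rnase12 as well. The other pairs ran the same way there, unthinned, but with overlapping intervals. With and without Rnase12, Rnase4 was seen in 12.5% and 6.17% of control cells and Ang in 6.25% and 2.57%. Ang was seen in 11.8% of control cells with Rnase4 (3.30 to 27.5%) and 2.53% of those without (1.27 to 4.48%).

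Genes were ranked by the ratio of the shares in Rnase10-positive and Rnase10-negative cells, with all clusters pooled. Pnp2 and the other members came near the top of 4714 genes seen in at least 5% of cells. Other neighbours, such as Pnp and Apex1, were not among the first 10, and their ranks are not given here. Pnp2 ranked 3 (39.1% against 22.6%), Ang 6, Rnase4 16 and Rnase12 78. A ratio of shares has less room for a gene seen in most cells, as Rnase12 was (80.4% against 61.7%), so the ranks also depend on detection. The other genes among the first 10 were Ankrd6, Prep, Ifi213, Gimap6, Ift57, Bin1, Dusp2 and Gm43154. The last 10 were Cdca3, Cenpw, Mxd3, Ccna2, Dlgap5, Cdkn3, Cdc20, Hist1h2bc, Ccnb2 and Pimreg, most of which act in cell division. Ccnb2, a mitotic cyclin, was seen in 5.004% of Rnase10-positive and 12.2% of Rnase10-negative cells, and Rnase10 was also lower in the clusters with high Mki67.

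**Figure D5:**
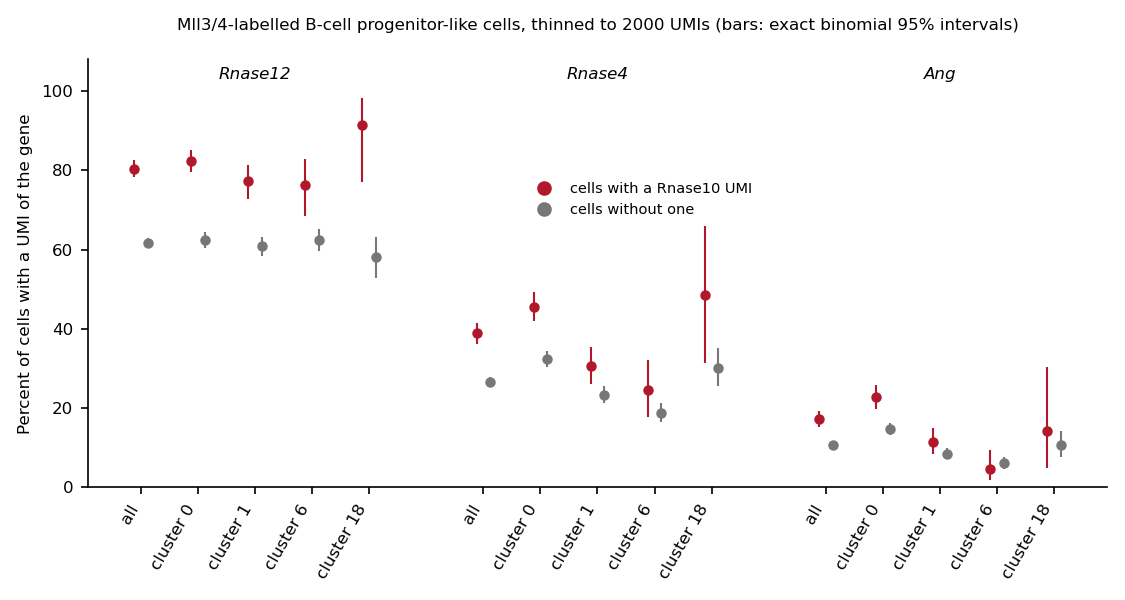
Percent of Mll3/4-labelled B-cell progenitor-like cells, thinned to 2000 UMIs, with a UMI of Rnase12, Rnase4 or Ang (y axis) among cells with (red) and without (grey) a Rnase10 UMI, over all clusters and by cluster (x axis), with exact binomial 95% intervals. Rnase12 is seen in 80.4% against 61.7% over all clusters and is higher in Rnase10-positive cells of each cluster, while the intervals for Ang overlap in clusters 1, 6 and 18.

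Likeness of level over cell types set Rnase12 and Rnase4 together. Over the 27 sums of a class in a library with at least 50 cells, the gene with the highest Pearson correlation to Rnase12 on log2(CPM + 1) was Rnase4 (r = 0.90) of 14765 genes compared, followed by Bfsp2 (0.87), Tnks2 (0.86), Ccdc9b, Gm20186, Pcdhb16, Pcdhb19, Phldb3, Trp53i13 and Proser1, with Ang at rank 33. Left without the 1 Mll3/4-labelled sum, as chosen after the data were seen, Rnase4 was at rank 3 (r = 0.86) of 13489 genes and Rnase10 at rank 3952 (r = 0.24). The genes most like Rnase10 over the 27 sums were Ighv2-7, Pcdh1, Ifngas1, Ephx4, Syt1, Pcdhb7, Mab21l2, Prss23, Syt13 and Ighv1-63 (r = 0.90 to 0.89), and Rnase4 had rank 300. Classes of 1 library share its depth and preparation, so these values describe the libraries, and the order for Rnase10 rests on the Mll3/4-labelled sum.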

How the data were processed

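The deposited values are UMI counts per gene and per antibody for each barcode, made by the authors with Cell Ranger 6.1.2 on mm10, per the submitters' processing notes, with no normalization, from 10x 3′ version 3.1 libraries. Gene positions came from GENCODE on GRCm38 and promoters from RefSeq on GRCm38.p6, for which all 4 members matched.

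Barcodes with at least 500 genes, 1000 UMIs and at most 10% mitochondrial UMIs were kept, and the highest Scrublet scores (scanpy 1.11.5) were removed at 0.8% per 1000 barcodes. The automatic threshold marked 0.054% in the Mll3/4-labelled library and was not used. The 4 libraries were clustered together (2000 variable genes, members and family left out, 30 principal components, 15 neighbours, Leiden resolution 1), and each cluster took its class name from 102 markers fixed for 12 classes, using folds over control cells outside the cluster. Counts were summed per library, class or cluster and given as CPM with exact Poisson, binomial or conditional binomial 95% intervals, which assume independent UMIs. A count of 0 was bounded by 3 counts. Ratios have no pseudocount, and likeness used 1 CPM. Free RNA was not corrected. Functions were tested on simulated counts with known folds.

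Members and lists were chosen with earlier results of these data known. Named genes are the members, the fixed lists, apart from results not reported here, the locus neighbours and the 10 genes at either end of each likeness order.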

Additional observations from a re-analysis of the deposited data

How the results depend on the processing

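Across 74 alternative values, 64 stayed within the counting interval of the main value (counts of genes within 1.5 times), 10 moved beyond it and 0 reversed. Averaging each cell's share of UMIs over all kept cells gave log2 ratios of 8.52 for Rnase10, 7.46 for Rnase12, 6.73 for Rnase4 and 6.02 for Ang, and thinning all cells to 2000 UMIs gave 8.77, 7.53 and 6.56 for the first 3. In the B-cell progenitor-like class, naming clusters by folds over all other cells, an alternative added after seeing the data, moved Rnase4 to 5.07 with 10 control counts. Rnase12 was seen in 95.3% of Rnase10-positive cells at 5000 UMIs and in 98.3% without thinning, because more cells of either kind then hold a UMI. Leaving out the control cell that grouped with the Mll3/4-labelled cells, also added later, moved Rnase10 to 7.65 on 3 counts, within its interval. Scaling by trimmed means shifted all genes by 0.05 over all cells and by -0.12 in the class, on the log2 scale, and changed no direction. No paired analysis was possible because each group had 1 library. The control class holds 469 cells, which limits every ratio for Rnase10 and Ang.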

Other observations

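The Mll3/4-labelled library carried 2 hashtag antibodies whose meaning the labels do not give, and its B-cell progenitor-like cells split into 3672 with Hashtag1 alone and 2979 with Hashtag2 alone. Rnase10 stood at 185 CPM (180 to 189) in the first and 195 CPM (190 to 199) in the second, Rnase12 at 710 and 686 CPM, Rnase4 at 186 and 166 CPM, and Ang at 59.9 and 57.3 CPM. Both sets of cells held all 4 members at similar levels. In cells thinned to 2000 UMIs, Rnase12 was seen in 80.5% of Rnase10-positive and 63.6% of Rnase10-negative cells with Hashtag1 alone, and in 81.0% and 59.8% with Hashtag2 alone. In control, the 7 Rnase10 counts of the class all lay in the 197 cells with Hashtag1 alone, and the 270 cells with Hashtag2 alone had 0.

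Surface antibodies were read in Mll3/4-labelled B-cell progenitor-like cells with (1339) and without (5408) a Rnase10 UMI after thinning to 2000 UMIs. Unthinned, 2364 of 6830 cells had such a UMI, so some cells counted as without Rnase10 did hold it. The median count per cell was 269 and 254 for CD117, the product of Kit, 31 and 28 for Sca1, 25 and 27 for CD48, 45 and 45 for CD127, the product of Il7r, and 14 and 13 for B220, and for the other 8 antibodies the medians differed by at most 1 count. Summed over cells, some shares of surface antibody counts differed by more than counting error. Sca1 had 20.8% with and 16.3% without Rnase10, CD48 23.3% and 21.7%, CD117 40.5% and 44.9%, and CD127 6.36% and 7.55%. Counting error leaves out the spread between cells, and cells with many antibody counts weigh most in such sums. The 1339 cells with Rnase10 held 230350 Sca1 counts at a median of 31 per cell. For CD117, CD48, Gr1 and CD16/32 the medians and the summed shares ran in opposite directions. CD150 did so too, with overlapping intervals of its shares. These are cells of 1 library, so no test was made.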
